A study of Homo sapiens with 12 samples.

Results

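A set of plasma membrane amino acid transporters was followed across the dose series: 10 genes of the 60675 Ensembl gene IDs in the count table, chosen by name, with earlier results of these data known, and matched to IDs through their symbols. RNA was sequenced from SW1783, a single human astrocytoma cell line, after 24 h of treatment. Vehicle cells were given PBS containing 2% DMSO, the solvent of the extract stock in the study's methods. Extract solutions were added in a smaller volume than the growth medium, so the 2% describes an added solution. Treated cells were given 20 (low dose), 100 (medium dose) or 500 µg/mL (high dose) of a water extract of Aconitum carmichaeli Debeaux (ACD), an aconite used as a medicinal herb. Each of the 4 groups held 3 libraries, with total counts between 18863863 and 24200576. The name of the extract rests on the sample titles and treatment labels, because the treatment protocol stored with the samples describes another herb, Poria cocos, and the diluent of the lower doses was not given. No label states that the 3 libraries of a group came from separate cultures, so p-values measure the spread between these libraries, which may be technical.

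The line carried few of the defining genes of astrocytes. GFAP, S100B, ALDH1L1 and FABP7 had at most 6 counts in any library, AQP4 had 0, and SLC1A2 had 3 to 9. VIM had 82433 to 119407 counts and CD44 38246 to 63926, while SLC1A3 (110 to 782 counts) and NES (52 to 259) were present at lower levels. Intestinal epithelial markers, listed because the study also used an intestinal line, were close to 0, with at most 4 counts of EPCAM, at most 2 of CDH1, VIL1 and LGALS4, and 0 of KRT20 and CDX2. The RNA is that of a whole culture, so fewer cells of a type and less RNA per cell cannot be told apart.

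Amino acids cross the plasma membrane through carriers of several solute carrier (SLC) families. SLC7 light chains such as SLC7A5 and SLC7A11 reach the surface bound to the heavy chain SLC3A2, also called CD98, and work as exchangers, whereas SLC38 and SLC6 members use the sodium gradient to load the cell. Many of these genes are known targets of ATF4, the transcription factor that cells raise when amino acids run short or the endoplasmic reticulum is stressed, and SLC7A11 is also a known target of NRF2, the factor of the oxidative stress response. In brain tissue, astrocytes use amino acid carriers, not all of them among these 10, to supply glutamine, take up cystine and clear glycine and glutamate.

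The study asked on which tissue the extract acts, with this line standing for the brain, and the dose groups show how each transporter differed from vehicle. At the high dose, 8 of the 10 transporters were called higher than vehicle and 0 lower, where a call required a DESeq2 adjusted p under 0.05 over all genes and a fold change over 1.5. Over all genes tested, 18.2% were called at this dose and 8.66% were called higher. The transporters that rose were SLC7A11, SLC7A5, SLC3A2, SLC38A1, SLC1A4, SLC1A5, SLC6A9 and SLC43A1. The median log2 fold change of the 10 was 1.44, against -0.01 over all genes tested. At the medium dose 7 were called higher and 0 lower, against 3.81% of all genes called and 2.34% called higher, and the transporter that dropped out of the call was SLC43A1. At the low dose 0 of the 9 transporters with an adjusted p were called, against 0.118% of all genes. By the adjusted p alone, 3 transporters were higher at the low dose, against 2.05% of all genes, and 1 was lower, against 1.24%. The 3 high dose libraries all lay above the 3 vehicle libraries for 10 of 10 transporters, which was also true of 30.6% of all genes tested, and the same held for 8 of 10 at the medium dose, against 25.0%. All 10 differed among the 4 groups in the likelihood ratio test of DESeq2, against 45.8% of all genes.

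**Figure D1:**
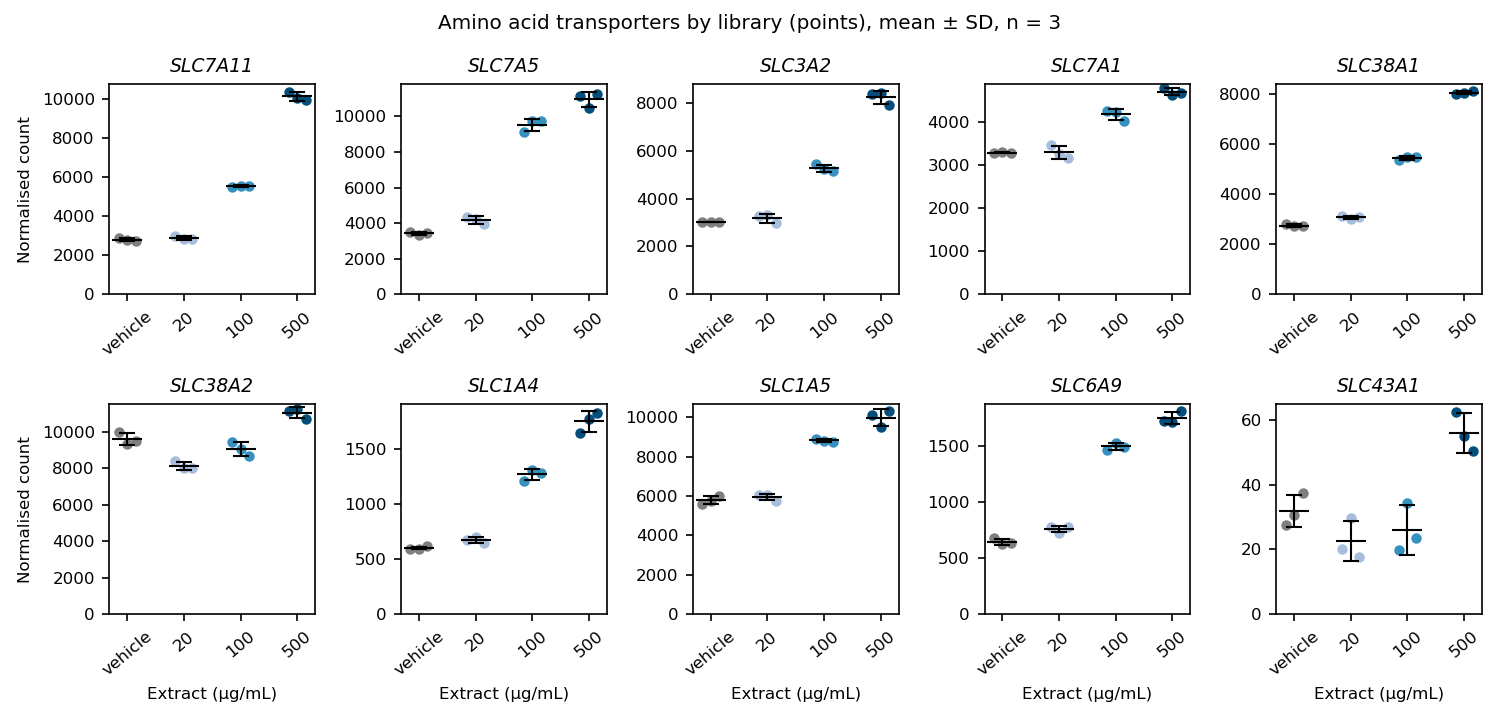
Normalised counts (linear axis from 0, a scale for each panel) of the 10 amino acid transporters against extract in µg/mL, with a point for each of the 12 libraries and bars at the group mean ± SD (n = 3). SLC7A11 climbs from 2719 to 2861 with vehicle to 9952 to 10355 at the high dose, whereas SLC38A2 stays between 7986 and 11249 throughout.

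Letters of regulatory elements were looked for in the promoter windows of the RefSeq annotation of GRCh38.p14, which cover 250 bases before and 50 bases after an annotated start, because 7 of the transporters rose together at both upper doses. The promoter table held 16 entries for 9 of the transporters, with more than 1 start for several, and no entry for SLC7A11. The letters TGATGNAA or their reverse complement TTNCATCA, the core of the C/EBP-ATF response element, occurred in 5 of the 16 entries, which belong to 5 genes, and in 3.62% of all 35116 entries. The letters TGACNNNGC or GCNNNGTCA, the core of the antioxidant response element, occurred in 4 of the 16 entries, belonging to 4 genes, and in 13.3% of all entries. Both were searched on both strands, and the antioxidant letters can contain the AP-1 letters TGACTCA, as they do in SLC3A2. The lines that follow show stretches of 30 bases, 5′ to 3′ on the strand of the gene, with the matched letters in capitals. The first 5 are the matches to the C/EBP-ATF core and the last 2 are matches to the antioxidant core in a light chain and its heavy chain. The remaining antioxidant matches, in SLC7A1 and SLC1A5, are not printed. That of SLC7A1 lies outside the gene, in the window of its main start.
SLC1A4 (chr2:64989381-64989410, plus strand): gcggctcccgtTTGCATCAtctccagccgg
SLC7A1 (chr13:29595663-29595692, minus strand): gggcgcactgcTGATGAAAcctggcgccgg
SLC3A2 (chr11:62881719-62881748, plus strand): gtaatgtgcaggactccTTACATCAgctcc
SLC38A1 (chr12:46266502-46266531, minus strand): tcagacccgaaTGATGAAAagggatcagct
SLC1A5 (chr19:46784893-46784922, minus strand): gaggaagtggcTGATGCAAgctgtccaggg
SLC7A5 (chr16:87869491-87869520, minus strand): ggcggggttccTGACGCAGCtgcgggcggc
SLC3A2 (chr11:62881651-62881680, plus strand): acgagggtgggTGACTCAGCgtcctccttc
The SLC1A4, SLC7A1 and SLC7A5 stretches lie at the start of the main (MANE Select) transcript, where the matches of SLC1A4 and SLC7A5 cross the outer edge of an exon and that of SLC7A1 lies within one. Those of SLC3A2, SLC38A1 and SLC1A5 belong to other annotated starts, 803, 2527 and 3780 bases downstream of the main one. There the C/EBP-ATF letters lie in an exon of SLC3A2, in an intron of SLC38A1 and across an exon edge of SLC1A5, and the antioxidant letters of SLC3A2 lie in an intron. Among the 5 genes with the C/EBP-ATF letters, 4 were called higher at both upper doses and SLC7A1 at neither. Among the 4 genes in the table without them, SLC7A5 and SLC6A9 were called higher at both, SLC43A1 at the high dose alone and SLC38A2 at neither. Of the 4 genes with the antioxidant letters, SLC7A5, SLC3A2 and SLC1A5 were called higher at both upper doses and SLC7A1 at neither. Of those without the antioxidant letters, SLC38A1, SLC1A4 and SLC6A9 were called higher at both, SLC43A1 at the high dose alone and SLC38A2 at neither. A match describes letters and is no evidence of a bound factor, and SLC7A5, SLC38A2, SLC6A9 and SLC43A1 had none of the C/EBP-ATF letters in these windows.

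SLC7A11 (ENSG00000151012, chromosome 4, 138164097 to 138242349, minus strand, GRCh38), the light chain that exchanges extracellular cystine for glutamate, showed the largest rise of the 10 at the high dose. SLC7A11 had 2861, 2792 and 2719 normalised counts with vehicle, 3005, 2823 and 2817 with 20 µg/mL, 5486, 5561 and 5544 with 100 µg/mL and 10355, 10065 and 9952 with 500 µg/mL. The low dose libraries overlapped the vehicle libraries, and the medium and high dose libraries formed separate groups above them. The mean rose from 2791 ± 70.8 to 10124 ± 208 (SD, n = 3) at the high dose, a 3.63-fold change with a 95% interval of 3.47 to 3.79 and a DESeq2 adjusted p below the smallest number the software holds. At the medium dose the fold change was 1.98 (1.89 to 2.07, DESeq2 adjusted p 4.94e-188), and with 20 µg/mL it was 1.03 (0.985 to 1.08, DESeq2 adjusted p 0.598). The step from the medium to the high dose was a further 1.83-fold (1.75 to 1.91, DESeq2 adjusted p 3.72e-174). Exons of the antisense gene SLC7A11-AS1 cover 8.97% of the exon bases of SLC7A11. The antisense gene had 24 to 40 counts with vehicle and 151 to 159 at the high dose, and whether the counting used the strand was not stated, so reads of the pair cannot be told apart. Its counts were at most 159 against 2613 or more for SLC7A11 in any library.

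SLC7A5 (ENSG00000103257, chromosome 16, 87830023 to 87869507, minus strand) encodes the light chain that brings leucine and other large neutral amino acids into the cell in exchange for glutamine. SLC7A5 had 3500, 3336 and 3432 normalised counts with vehicle, 4355, 4221 and 3925 with 20 µg/mL, 9118, 9717 and 9727 with 100 µg/mL and 11117, 10460 and 11283 with 500 µg/mL. The 4 groups did not overlap, and most of the distance was covered between the low and the medium dose. SLC7A5 rose from 3423 ± 82.5 with vehicle to 9521 ± 349 (SD, n = 3) at the medium dose, which was 2.78-fold (2.63 to 2.94, DESeq2 adjusted p 1.2e-292) and the largest rise of the 10 there. It stood at 10953 ± 435 at the high dose, 3.20-fold over vehicle (3.03 to 3.38), where DESeq2 gave an adjusted p below the smallest number it holds. The high dose exceeded the medium dose by 1.15-fold (1.09 to 1.21, DESeq2 adjusted p 9.85e-07), under the threshold for a call. At the low dose SLC7A5 had the highest ratio of the 10 to vehicle, 1.22 (1.15 to 1.29, DESeq2 adjusted p 2.3e-09), which was also short of that threshold. The related pseudogenes SLC7A5P1 and SLC7A5P2 had at most 8 and 21 counts.

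SLC3A2 (ENSG00000168003, chromosome 11, 62856004 to 62888880, plus strand), the heavy chain shared by both light chains, rose at the medium and again at the high dose. SLC3A2 had 3009, 3009 and 3012 normalised counts with vehicle, 3270, 3314 and 2968 with 20 µg/mL, 5424, 5232 and 5150 with 100 µg/mL and 8354, 8399 and 7919 with 500 µg/mL. The low dose libraries lay on both sides of the vehicle libraries, and the medium and high dose libraries were separate from them and from each other. The ratio to vehicle was 1.75 (1.66 to 1.85, DESeq2 adjusted p 1.49e-89) with 100 µg/mL and 2.73 (2.59 to 2.88, DESeq2 adjusted p 2.12e-299) with 500 µg/mL. High over medium dose was 1.56-fold (1.48 to 1.64, DESeq2 adjusted p 7.66e-63). That last value passed the fold threshold as a point value, and in a Wald test against the threshold itself the step was not called.

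SLC7A1 (ENSG00000139514, chromosome 13, 29509414 to 29595688, minus strand), which imports arginine and lysine without a heavy chain, was not called at any dose. SLC7A1 had 3288, 3295 and 3271 normalised counts with vehicle, 3457, 3264 and 3168 with 20 µg/mL, 4261, 4225 and 4032 with 100 µg/mL and 4786, 4627 and 4680 with 500 µg/mL. The groups at the upper doses did not overlap each other or vehicle, but the ratios were modest. High dose over vehicle was 1.43 (1.36 to 1.50, DESeq2 adjusted p 9.94e-44) and medium over vehicle 1.27 (1.21 to 1.33, DESeq2 adjusted p 4.39e-19), both under the 1.5-fold threshold.

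SLC38A1 and SLC38A2 are sodium-coupled importers of glutamine, alanine and other small neutral amino acids and are neighbours on chromosome 12. SLC38A1 (ENSG00000111371, 46183063 to 46270017, minus strand) had 2806, 2716 and 2715 normalised counts with vehicle, 3115, 3024 and 3085 with 20 µg/mL, 5368, 5502 and 5485 with 100 µg/mL and 8006, 8061 and 8115 with 500 µg/mL. The 4 groups were separate and ordered by dose. SLC38A1 rose 1.99-fold (1.91 to 2.07, DESeq2 adjusted p 8.7e-225) with 100 µg/mL and 2.94-fold (2.82 to 3.06) with 500 µg/mL, where the adjusted p was again below that smallest number. High over medium dose was 1.48 (1.42 to 1.53), just under the fold threshold, with a DESeq2 adjusted p of 3.81e-88. At the low dose its ratio to vehicle was 1.12 (1.07 to 1.17, DESeq2 adjusted p 5.75e-05).

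SLC38A2 (ENSG00000134294, chromosome 12, 46358188 to 46372773, minus strand), best known as the transporter that cells raise when they are starved of amino acids, followed another course. SLC38A2 had 9958, 9349 and 9486 normalised counts with vehicle, 8380, 8033 and 7986 with 20 µg/mL, 9443, 9053 and 8669 with 100 µg/mL and 11152, 11249 and 10683 with 500 µg/mL. The low dose libraries all lay below vehicle, the medium dose libraries overlapped it, and the high dose libraries all lay above it. No step passed the fold threshold. Low dose over vehicle was 0.848 (0.809 to 0.888, DESeq2 adjusted p 2.09e-09), and high dose over vehicle was 1.15 (DESeq2 adjusted p 2.31e-08). Medium over vehicle was 0.943 (0.900 to 0.988) with a DESeq2 adjusted p of 0.0487. Over the alternatives other than the Wald test against the fold threshold, the DESeq2 or edgeR adjusted p ranged from 5.88e-08 to 0.315. With total count scaling the log2 fold change of SLC38A2 was -0.20 in place of -0.08 at the medium dose, and 0.09 in place of 0.20 at the high dose, where the adjusted p was 0.0191. SLC38A2 was thus the transporter with the lowest log2 fold change of the 10 at the high dose, 0.20 (SE 0.0342), beside a neighbour that rose 2.94-fold.

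SLC1A4 and SLC1A5 are sodium-dependent exchangers of alanine, serine and cysteine, and SLC1A5 is a main route for glutamine into tumour cells. SLC1A4 (ENSG00000115902, chromosome 2, 64988477 to 65023865, plus strand) had 592, 596 and 616 normalised counts with vehicle, 670, 705 and 650 with 20 µg/mL, 1209, 1313 and 1288 with 100 µg/mL and 1649, 1777 and 1830 with 500 µg/mL. The groups were separate, and SLC1A4 rose 2.12-fold (1.94 to 2.31, DESeq2 adjusted p 5.14e-61) at the medium and 2.92-fold (2.68 to 3.18, DESeq2 adjusted p 2.21e-130) at the high dose. SLC1A5 (ENSG00000105281, chromosome 19, 46774883 to 46788594, minus strand) had 5576, 5766 and 5990 normalised counts with vehicle, 6035, 6026 and 5756 with 20 µg/mL, 8901, 8794 and 8757 with 100 µg/mL and 10112, 9500 and 10325 with 500 µg/mL. The low dose overlapped vehicle and the upper doses were each separate. SLC1A5 rose 1.73-fold (1.65 to 1.81, DESeq2 adjusted p 7.34e-115) at the high dose. With 100 µg/mL it was 1.53-fold over vehicle (1.46 to 1.60, DESeq2 adjusted p 1.14e-67), close to the threshold. That call was lost without vehicle replicate 1, where the log2 fold change went from 0.61 to 0.58, and it was also lost when libraries were scaled by their total count, at 0.50.

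SLC6A9 (ENSG00000196517, chromosome 1, 43991500 to 44031467, minus strand), the glycine transporter of glia, had 675, 628 and 635 normalised counts with vehicle, 779, 727 and 776 with 20 µg/mL, 1464, 1531 and 1495 with 100 µg/mL and 1724, 1718 and 1812 with 500 µg/mL. The 4 groups did not overlap. SLC6A9 rose 2.32-fold (2.14 to 2.51, DESeq2 adjusted p 9.41e-93) with 100 µg/mL and 2.71-fold (2.51 to 2.94, DESeq2 adjusted p 3.39e-134) with 500 µg/mL. High over medium dose was 1.17 (1.09 to 1.26, DESeq2 adjusted p 8.52e-05). CCDC24, on the opposite strand over 7.87% of its exon bases, had 104 to 165 counts.

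SLC43A1 (ENSG00000149150, chromosome 11, 57484534 to 57515780, minus strand), a facilitator of branched-chain amino acids that needs neither sodium nor exchange, was the least abundant of the 10. SLC43A1 had 27.7, 30.7 and 37.5 normalised counts with vehicle, 20.2, 29.6 and 17.8 with 20 µg/mL, 19.7, 34.5 and 23.6 with 100 µg/mL and 62.5, 55.0 and 50.5 with 500 µg/mL. Only the high dose libraries stood apart, all above the other 9. High dose over vehicle was 1.75-fold (1.15 to 2.66) with a DESeq2 adjusted p of 0.0206. At this depth the call depended on single libraries, with adjusted p values of 0.095, 0.0788, 0.0949 and 0.0612 without vehicle replicate 1, vehicle replicate 2, high replicate 1 and high replicate 2. High over medium dose was 2.14-fold (1.39 to 3.29, DESeq2 adjusted p 0.00194).

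The course over dose differed among the transporters that rose. The high dose exceeded the medium dose by a call in 3 of the 10, SLC7A11, SLC3A2 and SLC43A1, against 10.2% of all genes called and 4.58% called higher. By the adjusted p alone all 10 had higher levels at 500 than at 100 µg/mL, against 21.1% of all genes. The medium dose exceeded the low dose by a call in 6, against 1.94% of all genes called and 1.35% called higher, and those were SLC7A11, SLC7A5, SLC3A2, SLC38A1, SLC1A4 and SLC6A9. The log2 fold change at the medium dose was 88.0% of that at the high dose for SLC7A5, 84.3% for SLC6A9 and 77.4% for SLC1A5. For SLC7A11 it was 53.1%, for SLC3A2 55.7% and for SLC38A1 63.7%. These comparisons share the medium dose or vehicle libraries, so the shares are descriptions.

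**Figure D2:**
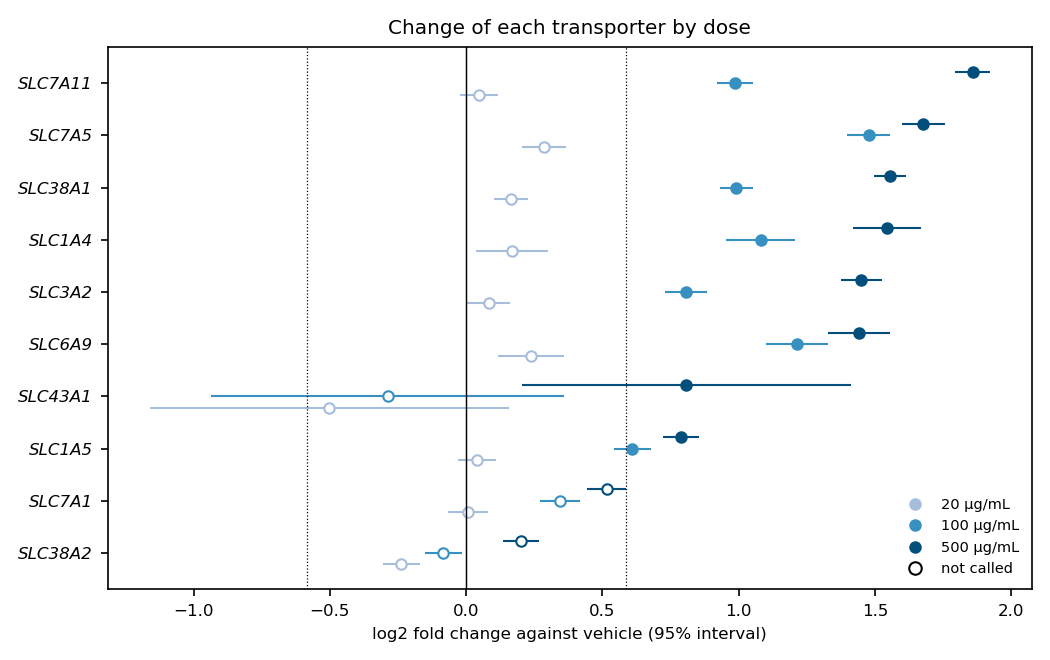
DESeq2 log2 fold change over vehicle at 20, 100 and 500 µg/mL for the 10 transporters, with 95% intervals, filled points for called values, open points for the rest and dotted lines at a 1.5-fold change. SLC7A5 and SLC6A9 reach most of their high dose value at 100 µg/mL, SLC7A11 and SLC3A2 about midway, and SLC38A2 crosses from -0.24 at 20 µg/mL to 0.20 at 500 µg/mL.

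Ratios between related transporters within a library do not depend on the scaling between libraries, and 4 such ratios were compared among the groups with an exact permutation test over all 15400 ways to split the libraries, adjusted over the 4. The log2 ratio of SLC7A5 to the heavy chain SLC3A2 was 0.18 ± 0.035 with vehicle, 0.39 ± 0.035 with 20 µg/mL, 0.85 ± 0.091 with 100 µg/mL and 0.41 ± 0.097 (SD, n = 3) with 500 µg/mL. This ratio was therefore highest at the medium dose, where the libraries lay between 0.75 and 0.92, and the high dose libraries (0.32 to 0.51) overlapped the low dose libraries. The 4 groups differed (exact permutation p 0.000519, adjusted p 0.000519), but the test asks for any difference among them and does not test the peak. The splits also took no account of replicate numbers. The log2 ratio of SLC7A11 to SLC3A2 had its highest mean at the high dose, with -0.11 ± 0.037 with vehicle, -0.14 ± 0.080 with 20 µg/mL, 0.07 ± 0.047 with 100 µg/mL and 0.30 ± 0.035 with 500 µg/mL (exact permutation p 0.00039, adjusted p 0.000519). The low dose libraries overlapped vehicle in that ratio and the upper groups did not overlap any other.

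**Figure D3:**
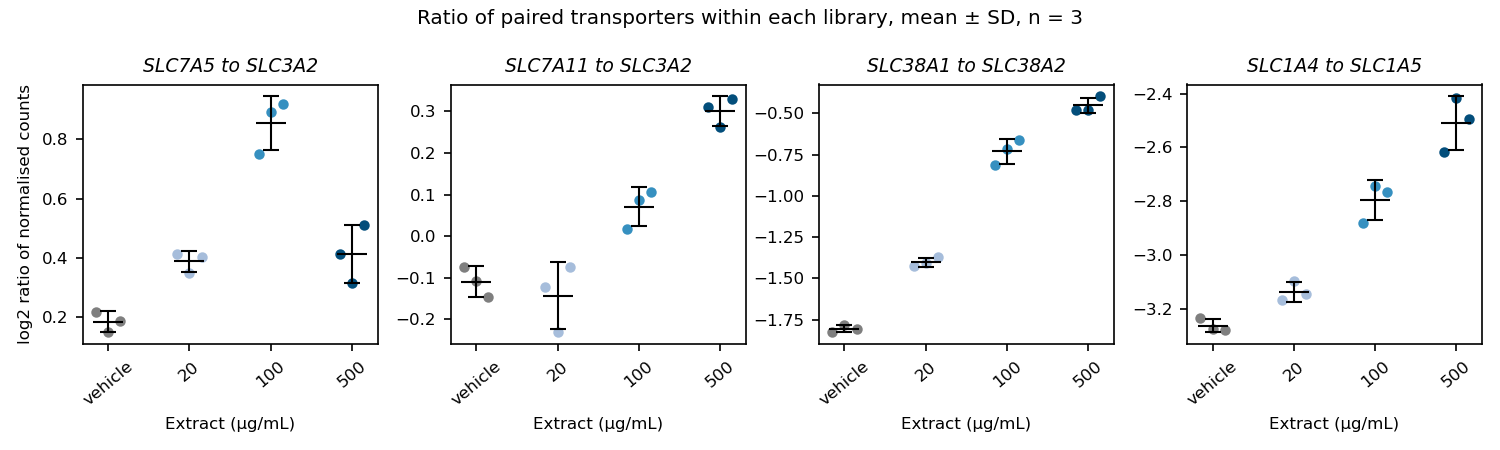
Log2 ratio of normalised counts within each library for the 4 pairs, against extract in µg/mL, with a point for each library, bars at the group mean ± SD (n = 3) and axes that do not start at 0. The ratio of SLC7A5 to SLC3A2 is highest at 100 µg/mL (0.75 to 0.92), while the other 3 ratios are highest at 500 µg/mL.

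The ratio of SLC38A1 to SLC38A2 moved furthest. Its log2 value was -1.80 ± 0.022 with vehicle, -1.40 ± 0.028 with 20 µg/mL, -0.73 ± 0.078 with 100 µg/mL and -0.45 ± 0.048 (SD, n = 3) with 500 µg/mL, and no library of a group overlapped another group. The log2 ratio of SLC1A4 to SLC1A5 went from -3.26 ± 0.025 to -3.14 ± 0.038, -2.80 ± 0.073 and -2.51 ± 0.1 in the same order of groups, again without overlap. Both had an exact permutation p of 6.49e-05, the smallest that this test can give, and an adjusted p of 0.00013. All 4 ratios use the same counts as the tests of single transporters, so their p-values are no independent evidence. The ratios are not corrected for transcript length, so their sign does not show which gene was more abundant. Per kilobase of transcript, SLC38A2 exceeded SLC38A1 and SLC1A5 exceeded SLC1A4 in all 12 libraries. SLC3A2 likewise exceeded both SLC7A5 and SLC7A11 per kilobase in all 12 libraries.

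Levels of different transporters were compared as normalised counts per kilobase of the main transcript. Which transcripts of each gene the line used was not measured, and the SDs do not cover it, so the order of genes with close values is uncertain. With vehicle, SLC1A5 (2005 ± 71.9 per kb) and SLC38A2 (2002 ± 66.6) led and their libraries overlapped, followed by SLC3A2 at 1597 ± 1.03 (SD, n = 3). SLC7A5, SLC7A1, SLC38A1, SLC7A11, SLC6A9 and SLC1A4 followed at 751, 447, 339, 289, 202 and 132 per kb, each separate from the next, and SLC43A1 was last at 12.7. At the high dose SLC3A2 led with 4363 ± 141 per kb, ahead of SLC1A5 at 3463 ± 149. SLC7A5 (2404 ± 95.5) and SLC38A2 (2300 ± 63.1) overlapped in the places after them, and SLC7A11 (1050 ± 21.6) stood above SLC38A1 (995 ± 6.70). SLC7A1, SLC6A9, SLC1A4 and SLC43A1 had 640, 546, 384 and 22.3 per kb. Between vehicle and the high dose the heavy chain moved from the third place to the first, SLC7A11 from the seventh to the fifth and SLC38A2 from the second to the fourth. Summed over the 10 transporters, the level was 7776 ± 73.6 per kb with vehicle, 7882 ± 259 with 20 µg/mL, 12403 ± 113 with 100 µg/mL and 16167 ± 168 with 500 µg/mL.

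**Figure D4:**
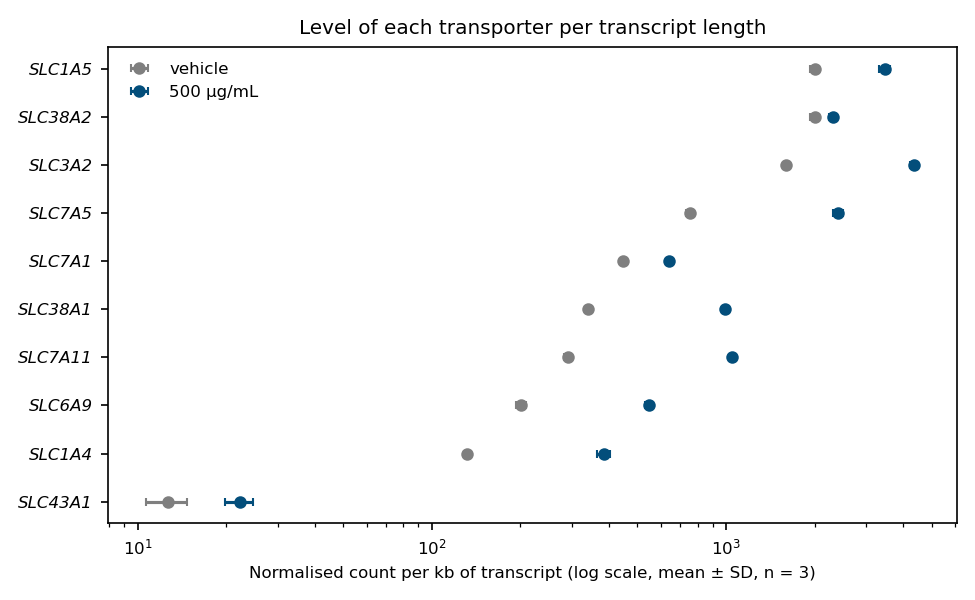
Normalised counts per kilobase of main transcript (log axis) for the 10 transporters with vehicle and with 500 µg/mL, as points at the group mean with SD bars (n = 3). SLC3A2 moves from 1597 per kb with vehicle to 4363 at the high dose and becomes the most abundant of the 10, while SLC43A1 stays lowest.

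The share of counts from the mitochondrial ribosomal RNA genes also differed between groups, and its part in these results was not tested. It was 0.912% to 0.960% with vehicle, 3.01% to 3.33% at the low dose, 7.67% to 8.05% at the medium dose and 5.76% to 6.06% at the high dose. With libraries scaled by their total count of nuclear genes, which leaves those genes out, the calls among the 10 transporters numbered 8 at the high, 7 at the medium and 0 at the low dose, as above. That alternative changes only the scaling between libraries.

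The remaining carriers of the plasma membrane were chosen with the same results known, and the difference between them and the transporters was not tested. Among 30 of them, 14 had enough counts for an adjusted p at the high dose, and 0 of those were called higher and 4 lower (9.57% of all genes were called lower), with a median log2 fold change of -0.41. SLC1A3, the glutamate transporter of astrocytes, fell from 690 ± 21.8 normalised counts with vehicle to 359 ± 18.2 at the medium dose and 126 ± 4.28 (SD, n = 3) at the high dose, so that its log2 value dropped by 2.45 (SE 0.107) with a DESeq2 adjusted p of 3.85e-115. SLC38A4, of the same family as SLC38A1, fell from 221 ± 20.9 to 56.3 ± 4.65 (log2 fold change -1.98, DESeq2 adjusted p 7.99e-31). SLC7A8, another light chain of SLC3A2 for neutral amino acids, fell from 216 ± 20.4 to 121 ± 11.1 (log2 fold change -0.83, DESeq2 adjusted p 2.36e-08). The last of the 4 was SLC38A3, at 34.1 ± 6.46 and 13.8 ± 0.665. With 100 µg/mL, 0 of 10 tested were called higher and 3 lower, against 1.48% of all genes called lower, and with 20 µg/mL 0 of 5 were called. SLC6A6 and SLC43A2 were higher at the high dose without reaching a call, with log2 fold changes of 0.39 and 0.21 (DESeq2 adjusted p 1.18e-09 and 0.00135). In this line 9 of the 30 had no counts, and 12 averaged 10 or more normalised counts.

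Carriers of the organelles were called about as often as genes in general. Among 9 tested lysosomal carriers, 2 rose at the high dose and 0 fell, or 22.2% called against 18.2% of all genes. CTNS, which exports cystine from lysosomes, rose from 264 ± 1.64 to 460 ± 28.5 (a log2 fold change of 0.80, DESeq2 adjusted p 9.38e-16), and SLC15A4, which carries histidine and peptides, rose from 528 ± 16.2 to 841 ± 43.3 (0.68, DESeq2 adjusted p 2.25e-19). Among 10 tested mitochondrial carriers 0 rose and 2 fell at the high dose, or 20.0% called against the same 18.2%. SLC25A12, the aspartate and glutamate carrier of the inner membrane, fell from 319 ± 16.9 to 179 ± 6.94 (log2 fold change -0.83, DESeq2 adjusted p 1.01e-12). The other was SLC25A18, at 49.5 ± 7.36 and 30.0 ± 4.75 (DESeq2 adjusted p 0.0216), a call that was lost without vehicle replicate 2, vehicle replicate 3, high replicate 2 or high replicate 3, which each left 1. At the medium and low doses 0 of either list were called.

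Amino acids that enter the cell are sensed upstream of mTORC1, the kinase complex that ties growth to nutrients. Of 27 genes listed for that machinery, 6 rose and 3 fell at the high dose, against 8.66% of all genes called higher and 9.57% called lower, with a median log2 fold change of 0.16. The list also held DDIT4, among the 6, and DEPTOR, among the 3, which are not amino acid sensors. SESN2, a leucine sensor that restrains mTORC1, rose from 374 ± 9.23 normalised counts to 1374 ± 36.5 at the medium and 2495 ± 145 (SD, n = 3) at the high dose, or 2.74 on the log2 scale (SE 0.0679), and DESeq2 gave an adjusted p below the smallest number it holds. DDIT4, an mTORC1 inhibitor induced by stress, rose from 1673 ± 56.4 to 3844 ± 224 and 4961 ± 244 (log2 fold change 1.57 at the high dose, DESeq2 adjusted p 6.09e-181). RRAGC, a subunit of the Rag GTPases that carry the amino acid signal, rose at the high dose from 1317 ± 59.3 to 2752 ± 71.0 (1.06, DESeq2 adjusted p 1.27e-107). FLCN, FNIP1 and RRAGD were the rest of the 6. RRAGD averaged only 33.9 normalised counts and had the largest log2 fold change of the list at the high dose, 3.46 (DESeq2 adjusted p 7.98e-19). SESN3 fell from 224 ± 24.4 to 121 ± 7.82 (-0.89, DESeq2 adjusted p 1.76e-08). Only SESN2 and DDIT4 were called at the medium dose, or 7.41% of the list against 3.81% of all genes, and 0 of 19 tested at the low dose.

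The cystine that SLC7A11 imports feeds glutathione synthesis. A wider list of cystine and glutathione genes, not all of that route, was the one in which the largest part rose after the transporters themselves. Of 14 tested at the high dose 5 rose and 0 fell, against 8.66% of all genes called higher, with a median log2 fold change of 0.55. At the medium dose 4 of 11 rose, against 2.34%. CHAC1, which degrades glutathione, rose from 84.0 ± 7.48 normalised counts with vehicle to 135 ± 19.3, 611 ± 30.5 and 640 ± 37.0 (SD, n = 3) at the low, medium and high dose. Its log2 fold changes were 0.69 (DESeq2 adjusted p 0.000121), 2.87 (7.34e-111) and 2.94 (1.86e-117), so that CHAC1 passed the call at the low dose, where no transporter did. CBS and CTH make cysteine from homocysteine. CBS rose from 145 ± 9.98 to 936 ± 90.8 (log2 fold change 2.69, DESeq2 adjusted p 6.42e-110) and CTH from 137 ± 15.1 to 774 ± 10.7 (2.49, DESeq2 adjusted p 1.52e-114) at the high dose. The remaining 2 that rose were GCLC, which catalyses the first step of glutathione synthesis, and TXNRD1, a thioredoxin reductase, whose log2 fold change of 0.63 was the closest of the 5 to the threshold. GCLM and GSS, also of glutathione synthesis, were not called at the high dose, with log2 fold changes of 0.47 and 0.14. With libraries scaled by total count, or by the total count of nuclear genes, 4 of this list were called.

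**Figure D5:**
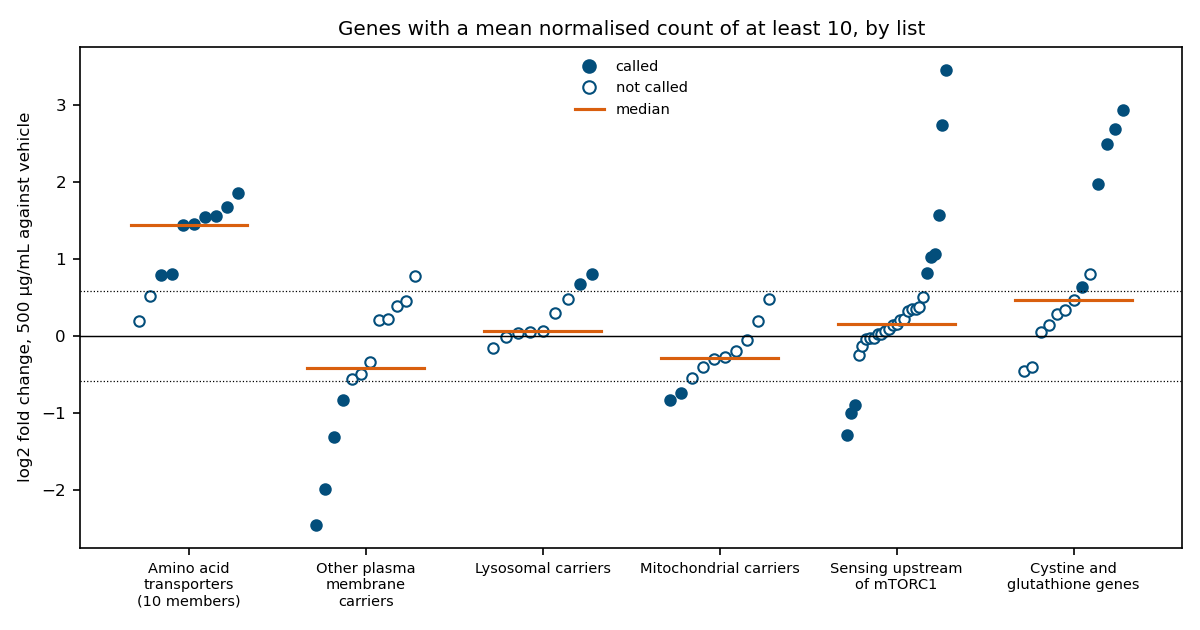
DESeq2 log2 fold change at 500 µg/mL over vehicle for each gene averaging 10 or more normalised counts in the transporter group and 5 lists, with filled points for called genes, a line at the median and dotted lines at a 1.5-fold change. All 8 filled transporters lie above 0 and all 4 filled genes among the other plasma membrane carriers lie below it.

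Among the 11264 genes averaging 100 or more normalised counts, the genes whose log2 fold changes at the 3 doses lay nearest to those of SLC7A11 (Euclidean distance over the 3 values) were TMEM268 at 0.128, GSAP at 0.158 and TRPM4 at 0.18. The log2 fold changes of TMEM268 were 0.17, 0.96 and 1.86, beside 0.05, 0.99 and 1.86 for SLC7A11. For SLC38A2, the transporter with the lowest value at the high dose, they were ENSG00000270015 at 0.0584, CREB5 at 0.0683 and TMEM140 at 0.0718, with log2 fold changes within 0.28 of 0 at each dose.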

How the data were processed

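The authors isolated total RNA, prepared directional mRNA libraries, sequenced paired ends, trimmed reads with Trim Galore 0.6.5, aligned them with STAR 2.7.3a to GRCh38 and counted them with RSEM 1.3.3 (versions as in the submitters' processing notes), and FastQC 0.11.9 was used on the reads. Use of the strand in counting is not given in the sources used here. The deposited values are RSEM expected counts per gene, of which 8.75% were not whole, and they were rounded here. Of 60675 gene IDs, 56558 were in GENCODE v44, which gave symbols, GRCh38 coordinates (1-based) and transcript lengths. Groups and replicate numbers came from the labels. Replicate pairs differed by a chi-square of 1.99 to 3.55 per degree of freedom, so all 12 libraries were kept. Same-numbered low and medium dose libraries deviated together from their group means (correlations over 11264 genes of 0.155, 0.122 and 0.186), a pairing read from the data alone, and in no other pair of groups were all 3 correlations over 0.1.

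All 12 libraries were fitted with DESeq2 1.42.0 in R 4.3.3, with group as the only term, two-sided Wald tests and independent filtering at 0.05. A call needed a Benjamini-Hochberg adjusted p under 0.05 over all genes and a fold change over 1.5, the thresholds of the study's methods. For SLC43A1 at 20 µg/mL DESeq2 gave no adjusted p. Normalised counts were divided by DESeq2 size factors, and intervals are 95% Wald intervals that cover the fitted spread. Ratios used a pseudocount of 0.5. The fitting code was tried on simulated counts with known changes in a limited set of genes at the high dose. That trial does not show how the fits perform under the wider changes of these data. edgeR 4.0.16 and the other settings tried are given at the end.

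The 10 transporters, the other lists, the promoter letters and the 0.05 filtering level were chosen with earlier results of these data known. The 4 ratios were formed among those 10 transporters, so their choice was not independent of these results either. From each other list the text names up to 3 called genes with the largest rise and fall at the high dose, averaging 100 or more normalised counts and not overlapping vehicle. SLC38A3, SLC6A6, SLC43A2, SLC25A18, DEPTOR, FLCN, FNIP1, RRAGD, GCLC, GCLM, GSS and TXNRD1 were named after their values were seen. For the transporters with the largest rise and the lowest value, the 3 nearest genes are named. In the sensing list, 1 of 28 names had no match. Some genes that overlap the transporters are not reported here.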

Additional observations from a re-analysis of the deposited data

How the results depend on the processing

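Of 1100 values of single transporters under the alternatives, 1067 kept their direction and side of the threshold, 11 lost a call, 18 gained one, all 18 by dropping the fold threshold, and 4 reversed. The reversals were small. SLC7A1 at the low dose had a log2 fold change of 0.01, against -0.032 with total count scaling, -0.003 with the total of nuclear genes and -0.03 without low replicate 1 (range -0.03 to 0.033 when leaving out each library). SLC43A1 from low to medium dose went from 0.21 to -0.052 without medium replicate 2, and lay between -0.052 and 0.457 when each library was left out. Total count scaling put the median log2 fold change of the 11264 genes averaging 100 or more normalised counts at -0.11 at the medium dose.

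With the adjusted p alone, the transporters called were 4 at the low dose and 10 for high against medium. The genes called at the high dose were then 9 other plasma membrane carriers, 5 lysosomal carriers, 9 mitochondrial carriers, 18 genes of the sensing list and 10 cystine and glutathione genes. The share of all genes by that criterion at the high dose is not given here, so these counts describe the criterion and not the lists. With the Wald test against the fold threshold, 1 transporter was called for high against medium. At the high dose against vehicle that test called 2 other plasma membrane carriers, 0 lysosomal and 0 mitochondrial carriers. With total count scaling 1 lysosomal carrier was called. The shares of all genes under these alternatives are not given here either, so the counts describe the settings and not the lists. In edgeR the transporters called numbered 8, 7 and 0 at the high, medium and low dose.

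Leaving out each library in turn gave 7 to 8 transporters called at the high dose, 6 to 7 at the medium dose, 4 to 5 other plasma membrane carriers and 1 to 2 mitochondrial carriers, and did not move the other counts. Between the other groups than low and medium, the samples share only a number: over all groups, deviations from group means correlated between -0.113 and 0.219 for the same number, with 5 of 18 pairs over 0.1, and between -0.155 and 0.0995 for different numbers. A fit with the replicate block called 8, 7 and 0 transporters at the high, medium and low dose, 6 for medium against low dose, and 1 mitochondrial carrier in place of 2, and changed no other call count.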
